A study of Mus musculus with 9 samples.

Results

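Bhlhe40, Bhlhe41 and 8 genes of the circadian clock were described here in cells sorted from mouse limbs: Per1, Per2, Per3, Cry1, Nr1d1, Dbp, Arntl and Clock. The 10 genes were chosen by name, with their mutant and control values in this table already known, so the values that separate mutants from controls are given as a description and carry no test. Each of the 10 names matched 1 of the 24102 rows of the expression table, and all 10 passed the filter on low values. The mutants had the genotype Shox2(Cre/-);Rosa(mTmG), and the controls had Shox2(Cre/+);Rosa(mTmG). Both groups thus carried the mTmG reporter and a Cre allele at Shox2, a homeobox gene needed for the proximal limb skeleton. Cre made from the Shox2 locus switches that reporter to a green membrane protein, and GFP-positive cells were sorted from dissociated limbs at E12.5 and profiled by RNA sequencing. The labels list 4 mutant samples, 3 control samples and 2 wild-type whole limbs, which were not analysed here. The table holds 3 mutant and 3 control columns, 1 per genotype from each of 3 litters. The labels list 2 mutant samples of litter 1, and the table does not say whether its mutant column of that litter holds 1 of them or both. The number of embryos behind each column is not stated.

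The circadian clock of mammals is a transcriptional feedback loop. The bHLH-PAS proteins Clock and Arntl (also called Bmal1) bind E-boxes as a pair and activate Per and Cry genes, whose products return to the nucleus and inhibit that pair. Nr1d1 (Rev-erb alpha) is activated through E-boxes and represses Arntl, and Dbp is an E-box-driven output that activates genes through D-boxes. Bhlhe40 (Dec1) and Bhlhe41 (Dec2) are bHLH-Orange repressors that bind the E-box CACGTG, so that they compete with Clock and Arntl. Bhlhe40 is also known to be induced by low oxygen through HIF factors, by serum and by several growth factors.

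Promoter windows of 300 bases, from 250 before to 50 after an annotated start, were found for 8 of the 10 genes in RefSeq on GRCm38.p6, in 12 windows in all. The other 2, Bhlhe40 and Per2, were not searched. The E-box CACGTG, which reads the same on both strands, was in 3 windows, those of Bhlhe41, Per1 and Cry1, against 7.17% of 32544 distinct windows of that length across genes. The related letters CACGTT, searched on both strands, were in 2 windows, those of Cry1 and Nr1d1, against 4.71% of all windows. The D-box TTANGTAA was in the window of Per3 only, against 2.29% of all windows. The hexamer AGGTCA, at the core of the element that Nr1d1 binds, was in windows of Arntl, Clock and Per1, against 16.2% of all windows. The cAMP element TGACGTCA was in 0 of the 12 windows, and in 1.80% of all windows. The windows with an E-box or the related letters are printed 5′ to 3′ on the gene's strand, because these are the letters that link the 2 Bhlhe repressors to the loop; capitals mark the E-box, the related letters and the hexamer on either strand. They lie at chr6:145865371-145865670 on the minus strand for Bhlhe41, chr11:69098699-69098998 on the plus strand for Per1, chr10:85185005-85185304 on the minus strand for Cry1 and chr11:98775328-98775627 on the minus strand for Nr1d1. The first base of CACGTG was at position -153 from the start for Bhlhe41, at -166 for Per1 and at -60 for Cry1. A match of letters does not show that a factor is bound there. Sequence outside these windows was not searched, so a window without a match does not show that the gene lacks the site.
Bhlhe41: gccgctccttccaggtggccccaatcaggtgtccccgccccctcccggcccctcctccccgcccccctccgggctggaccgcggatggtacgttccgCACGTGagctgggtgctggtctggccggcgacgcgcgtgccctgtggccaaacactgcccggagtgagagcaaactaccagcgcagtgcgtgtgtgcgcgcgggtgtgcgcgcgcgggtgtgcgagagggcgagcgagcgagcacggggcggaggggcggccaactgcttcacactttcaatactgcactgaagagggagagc
Per1: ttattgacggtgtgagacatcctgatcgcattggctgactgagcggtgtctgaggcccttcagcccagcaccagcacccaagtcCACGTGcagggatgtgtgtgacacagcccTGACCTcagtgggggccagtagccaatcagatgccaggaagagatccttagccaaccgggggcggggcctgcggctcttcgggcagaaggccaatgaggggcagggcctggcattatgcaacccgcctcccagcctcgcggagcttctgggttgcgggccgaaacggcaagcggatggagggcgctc
Cry1: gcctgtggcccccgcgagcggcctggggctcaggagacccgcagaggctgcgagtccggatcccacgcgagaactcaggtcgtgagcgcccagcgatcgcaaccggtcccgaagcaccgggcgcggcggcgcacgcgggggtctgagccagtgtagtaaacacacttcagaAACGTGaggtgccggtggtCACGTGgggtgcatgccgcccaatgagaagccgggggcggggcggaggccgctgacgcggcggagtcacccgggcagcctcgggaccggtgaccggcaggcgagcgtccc
Nr1d1: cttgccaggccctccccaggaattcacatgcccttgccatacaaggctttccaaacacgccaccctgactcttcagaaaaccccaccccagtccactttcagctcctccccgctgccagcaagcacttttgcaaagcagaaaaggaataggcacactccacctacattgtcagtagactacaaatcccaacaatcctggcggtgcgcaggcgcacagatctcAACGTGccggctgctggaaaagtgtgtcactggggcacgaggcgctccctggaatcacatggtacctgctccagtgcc

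Values were read as FPKM, fragments scaled by transcript length, which allows levels to be compared between genes. Per the file headers, columns were scaled by the geometric option of Cuffdiff. Fitted differences were on the log2(FPKM + 1) scale, mutant minus control, from limma over 12314 rows. The file header repeats the scaling for every litter, so columns of different litters may have been scaled apart, while the mutant and control of a litter share a heading. Read depth is unknown. Shox2 itself was at 16.7, 18.3 and 96.9 FPKM in the mutants of litters 1, 2 and 3, and at 217, 222 and 210 FPKM in their controls. The mutant columns thus held 7.68%, 8.25% and 46.2% of their litter's control level. Of 11 markers of limb mesenchyme fixed for the sorted lineage, all were above the filter. Their summed level was 1018 to 1654 FPKM in mutants and 1267 to 1610 FPKM in controls. The sum includes Shox2 itself. It also includes Col2a1, at 418 to 703 FPKM in mutants and 448 to 493 FPKM in controls.

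Bhlhe40 had the largest fitted difference of the 10 genes. It was at 8.39, 17.7 and 2.91 FPKM in the mutants of litters 1, 2 and 3, and at 1.72, 2.87 and 1.55 FPKM in the controls of the same litters. The groups did not overlap, but the litter 3 mutant lay just above the litter 2 control. Within litters the mutant level was 4.88, 6.17 and 1.87 times that of its control. The mean was 9.68 ± 7.50 FPKM in mutants and 2.05 ± 0.719 FPKM in controls (SD, n = 3 each), a log2 difference of 1.56 with a standard error of 0.54, or 0.29 in a fit with litter as a replicate block. The difference was 1.02 without the litter 2 mutant and 0.93 with a pseudocount of 5 FPKM. The litter 3 mutant, lowest in Bhlhe40 of the 3, was the mutant with the most Shox2 left, and without it the difference was 2.15. The litter 2 mutant, the highest column, also differed in sex-linked genes. Xist was at 178 FPKM there and at 34.6 FPKM in its control, and the Y-linked Eif2s3y was listed at 0 there and was at 23.9 FPKM in its control. Xist also differed in litter 1, with 36.8 FPKM in the mutant and 12.1 FPKM in the control, while Eif2s3y was at 22.4 FPKM in the mutant and 21.6 FPKM in the control. The litter 3 values of Xist were 68.4 FPKM in the mutant and 73.0 FPKM in the control. Without the litter 2 pair, the blocked difference of Bhlhe40 was 1.20. The part of sex composition in this value was not tested. Bhlhe40 is the only member of the 10 in the authors' deposited list of direct repression targets of Shox2, and that list holds 5.28% of the distinct names in the table. That list may rest on these samples and is no separate evidence. In such bulk samples, more cells with the transcript and more transcript per cell cannot be told apart.

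**Figure D1:**
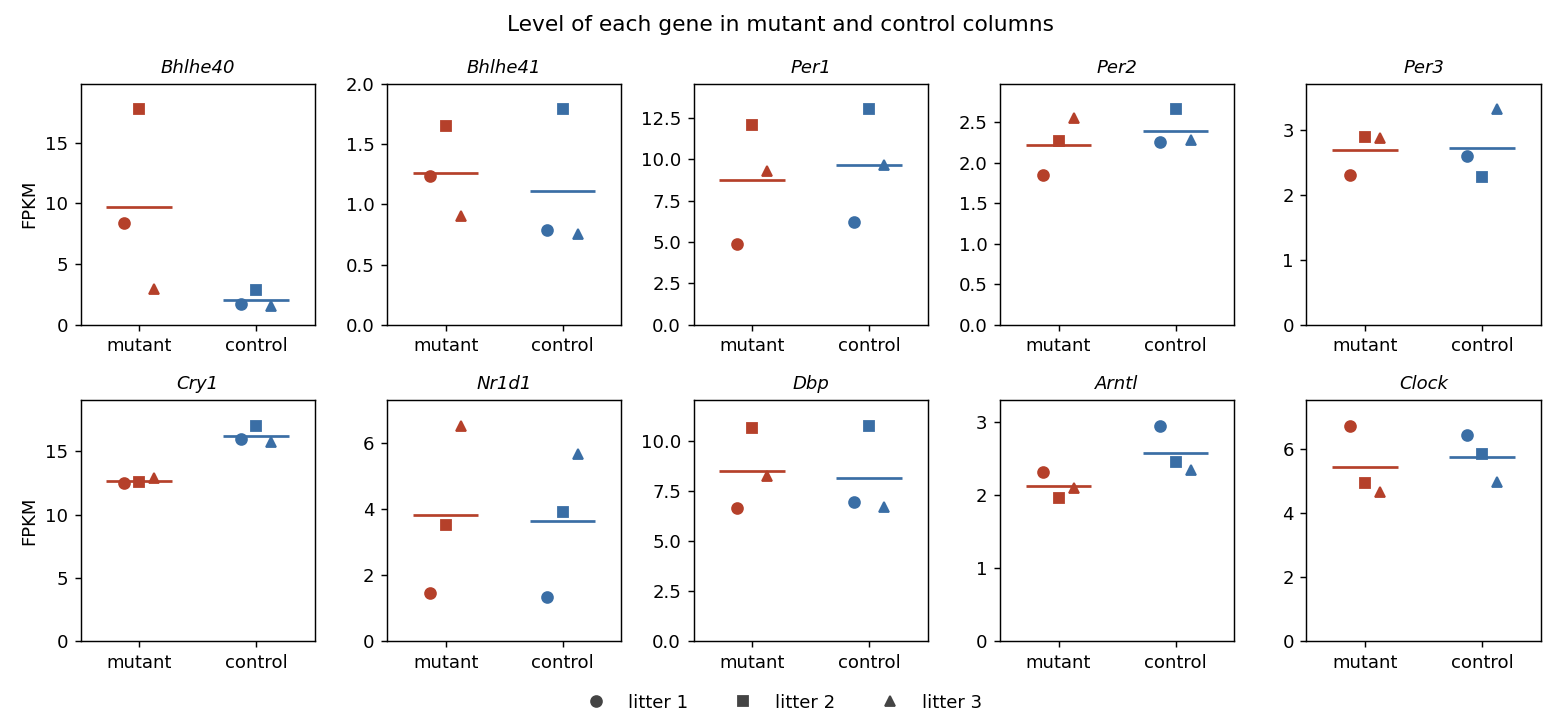
Level in FPKM of each of the 10 genes in the 3 mutant columns (left, red) and the 3 control columns (right, blue), with marker shape giving the litter and a line the mean of 3. Bhlhe40 is higher and Cry1 and Arntl are lower in every mutant column than in any control column, and the other 7 genes overlap.

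Bhlhe41, its closest relative, was at 1.24, 1.65 and 0.903 FPKM in the mutants and 0.787, 1.79 and 0.755 FPKM in the controls. The columns interleaved, and the highest of the 6 was the litter 2 control. Its log2 difference was 0.12 with a standard error of 0.24, or 0.17 with the block. Bhlhe41 was higher in the mutant in litters 1 and 3 but not in litter 2. The ratio of Bhlhe40 to Bhlhe41 within a column, which column scaling cannot move, was 6.78, 10.8 and 3.22 in the mutants, against 2.18, 1.61 and 2.06 in the controls. Other bHLH-Orange repressors, the Hes and Hey genes, were a fixed list of 10, of which 5 were above the filter. Hes1, a repressor downstream of Notch, was at 19.9, 17.5 and 19.0 FPKM in the mutants and 39.5, 35.7 and 28.2 FPKM in the controls (limma adjusted p = 0.626, or 0.0817 with the replicate block). Hey1 was at 6.09, 7.28 and 6.18 FPKM in the mutants and 5.19, 5.67 and 4.82 FPKM in the controls (adjusted p = 1.00, or 0.429 with the block), so its columns lay the other way round from those of Hes1.

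The activators of the loop, Arntl and Clock, had mean levels of 2.35 and 5.58 FPKM over the 6 columns. Arntl was at 2.32, 1.96 and 2.10 FPKM in the mutants and 2.95, 2.45 and 2.34 FPKM in the controls. It was lower in the mutant in 3 of 3 litters and the groups did not overlap, although the litter 1 mutant and the litter 3 control were nearly level. Within litters the mutant held 0.787, 0.798 and 0.896 of its control. The log2 difference was -0.19 with a standard error of 0.15, or 0.14 with the block. It was -0.09 with a pseudocount of 5 FPKM, -0.27 with a pseudocount of 0.1 FPKM and -0.12 without the litter 1 control. Clock was at 6.70, 4.92 and 4.64 FPKM in the mutants and 6.43, 5.83 and 4.96 FPKM in the controls, with both groups highest in litter 1. Its log2 difference was -0.08 with a standard error of 0.18, or 0.12 with the block.

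Among the Per and Cry repressors, Cry1 had the difference that varied least between columns. It was at 12.52, 12.6 and 12.9 FPKM in the mutants and 16.0, 17.0 and 15.7 FPKM in the controls. All mutant columns lay below all control columns, and the spread within each group was small, with means of 12.7 ± 0.193 and 16.2 ± 0.680 FPKM (SD, n = 3 each). Within litters the mutant held 0.782, 0.741 and 0.821 of its control. The log2 difference was -0.33 with a standard error of 0.12, or 0.11 with the block. The ratio of Cry1 to Clock within a column was 1.87, 2.56 and 2.78 in mutants and 2.49, 2.92 and 3.16 in controls, lower in the mutant in each litter. Per1, which is also an immediate early gene, was at 4.91, 12.1 and 9.33 FPKM in the mutants and 6.22, 13.02 and 9.69 FPKM in the controls. It was lower in the mutant in 3 of 3 litters, but by far less than the distance between litters. Its log2 difference was -0.15 with a standard error of 0.36, or 0.11 with the block. Per2 was at 1.85, 2.27 and 2.55 FPKM in the mutants and 2.26, 2.66 and 2.28 FPKM in the controls. Per3 was at 2.31, 2.90 and 2.88 FPKM in the mutants and 2.60, 2.27 and 3.32 FPKM in the controls. Both sets of columns overlapped, with log2 differences of -0.08 for Per2 and -0.01 for Per3, and standard errors of 0.15 and 0.17. With the block both standard errors were 0.15.

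The E-box outputs Nr1d1 and Dbp followed the litter. Nr1d1 was at 1.47, 3.52 and 6.52 FPKM in the mutants of litters 1, 2 and 3 and at 1.36, 3.91 and 5.67 FPKM in the controls. The 2 columns of a litter lay close together, and the litters did not overlap. Its log2 difference between genotypes was 0.04 with a standard error of 0.52, or 0.13 with the block. Dbp was at 6.68, 10.7 and 8.28 FPKM in the mutants and 6.99, 10.8 and 6.71 FPKM in the controls, highest in litter 2 in both groups. Its log2 difference was 0.07 with a standard error of 0.24, or 0.12 with the block.

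Of the 10 genes, 1 was higher in the mutants without overlap, where 4.22% of all rows tested were, and 2 were lower without overlap, where 5.03% of all rows were. Because the genes were chosen with these values known, nothing is read from that count. Their median log2 difference was -0.04, and that of all rows tested was also -0.04. The mutant was higher in 3 of 3 litters for 1 gene and lower for 3 genes, namely Cry1, Arntl and Per1, where 15.7% of all rows tested were higher and 22.3% lower in 3 of 3 litters. Across all 6 columns the order of mean levels was Cry1 (14.5 FPKM), Per1 (9.21), Dbp (8.35), Bhlhe40 (5.86), Clock (5.58), Nr1d1 (3.74), Per3 (2.71), Arntl (2.35), Per2 (2.31) and Bhlhe41 (1.19). Cry1 exceeded Per1 in 6 of 6 columns and Per2 exceeded Bhlhe41 in 6 of 6. Each other pair of neighbours changed order in at least 2 columns, so their ranks are not distinct. Bhlhe40 ranged most, from 1.55 FPKM in the litter 3 control to 17.7 FPKM in the litter 2 mutant.

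**Figure D2:**
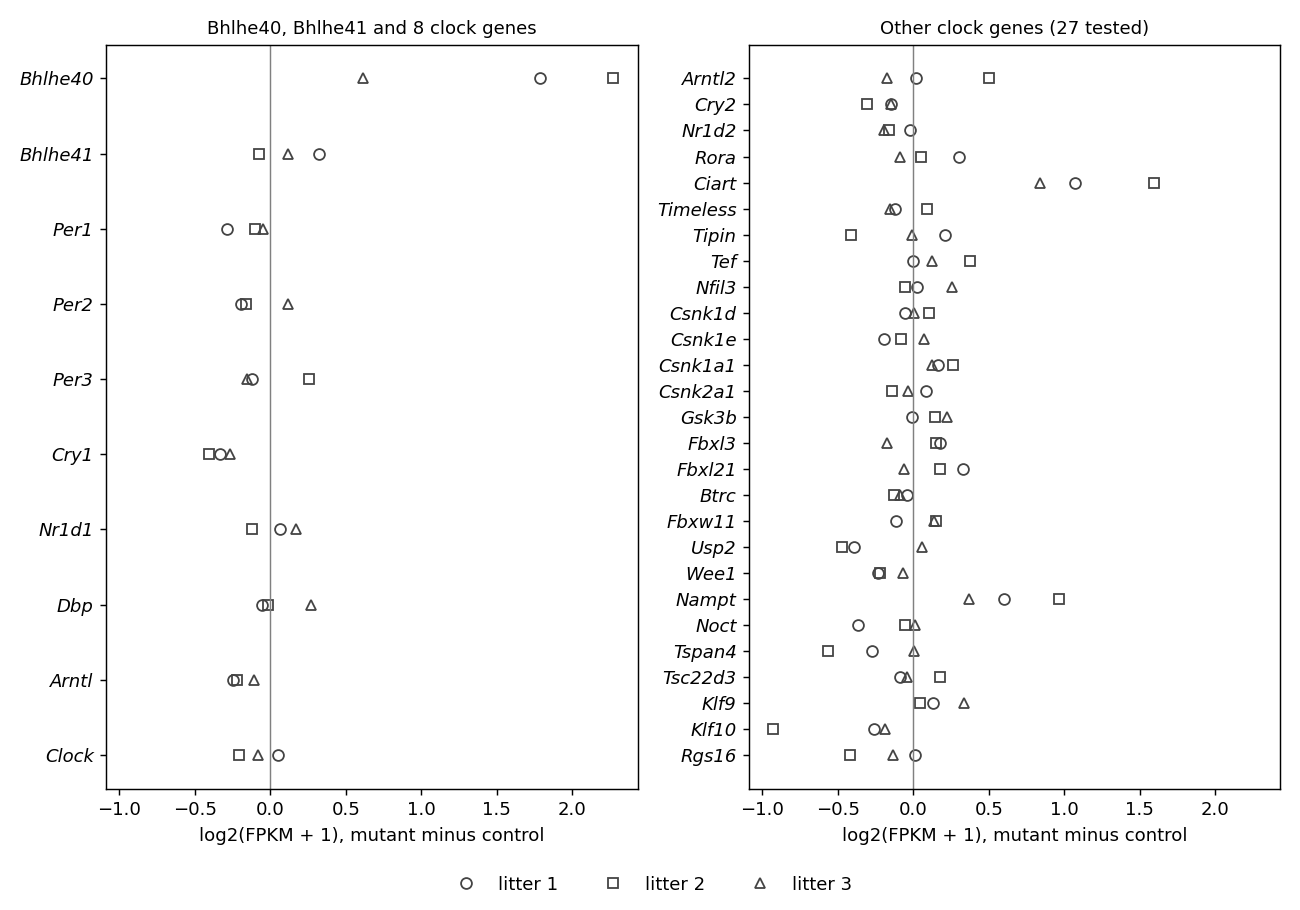
Difference in log2(FPKM + 1), mutant minus control, within each litter (marker shape) for the 10 genes (left) and for the 27 tested genes of the wider clock list (right). Bhlhe40 lies at 1.79, 2.27 and 0.62 in litters 1, 2 and 3 and Ciart at 1.07, 1.59 and 0.84, while most other genes lie around 0.

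The variation of each gene over the 6 columns was divided into a share between genotypes, a share between litters and a remainder, as a description. The litter share was 99.0% for Nr1d1, 95.9% for Per1, 91.0% for Dbp, 85.4% for Clock and 85.3% for Bhlhe41, and the median over all rows tested was 65.6%. The litter share of Nr1d1 was above that of 98.4% of rows tested, and that of Per1 above 92.5%. It was 56.9% for Per3, 51.1% for Per2, 39.7% for Arntl, 31.9% for Bhlhe40 and 1.36% for Cry1. The genotype share was 95.9% for Cry1, 56.8% for Bhlhe40 and 54.8% for Arntl, and its median over all rows tested was 9.66%.

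**Figure D3:**
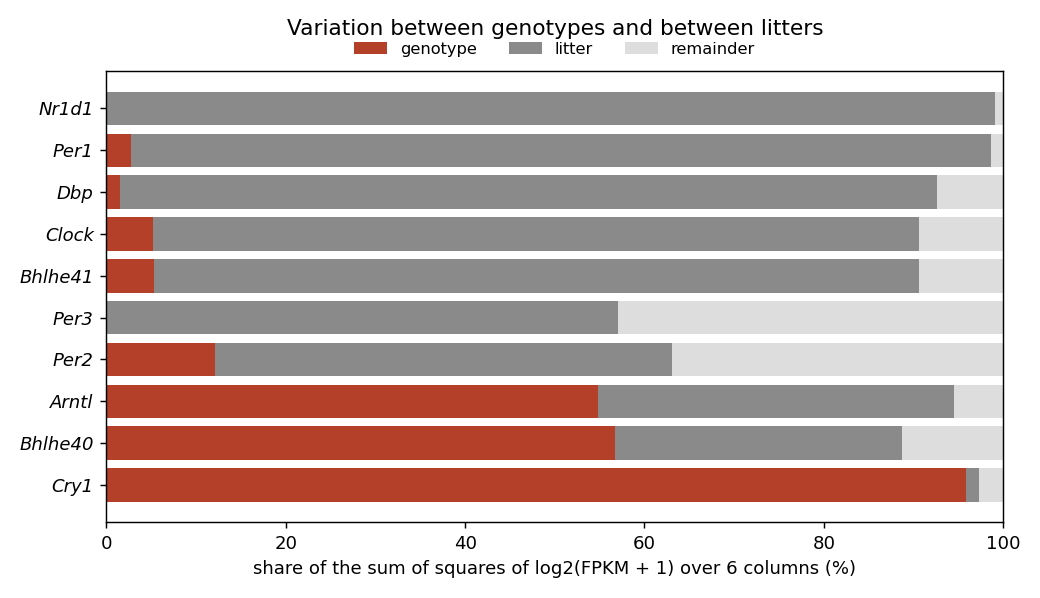
Share of the sum of squares of log2(FPKM + 1) over 6 columns that lies between genotypes (red), between litters (dark grey) and in the remainder (light grey), in percent, for each of the 10 genes. Nr1d1, Per1 and Dbp vary almost wholly between litters and Cry1 almost wholly between genotypes.

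Ratios within a column do not depend on how litters were scaled. The ratio of Nr1d1 to Arntl, a repressor and its target, was 0.633, 1.80 and 3.11 in the mutants of litters 1, 2 and 3 and 0.460, 1.60 and 2.43 in the controls. Litter 1 was thus low and litter 3 high in both genotypes, and in each litter the mutant was above its control. The ratio of Per1 to Cry1 was 0.392, 0.959 and 0.724 in the mutants and 0.388, 0.766 and 0.617 in the controls, lowest in litter 1 and highest in litter 2 for both. The ratio of Dbp to Clock was 0.997, 2.17 and 1.78 in the mutants and 1.09, 1.85 and 1.35 in the controls, in the same litter order. The ratio of Bhlhe40 to Clock was 1.25, 3.60 and 0.627 in the mutants and 0.267, 0.493 and 0.313 in the controls, so litter 2 was highest in both genotypes but every mutant was above every control.

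**Figure D4:**
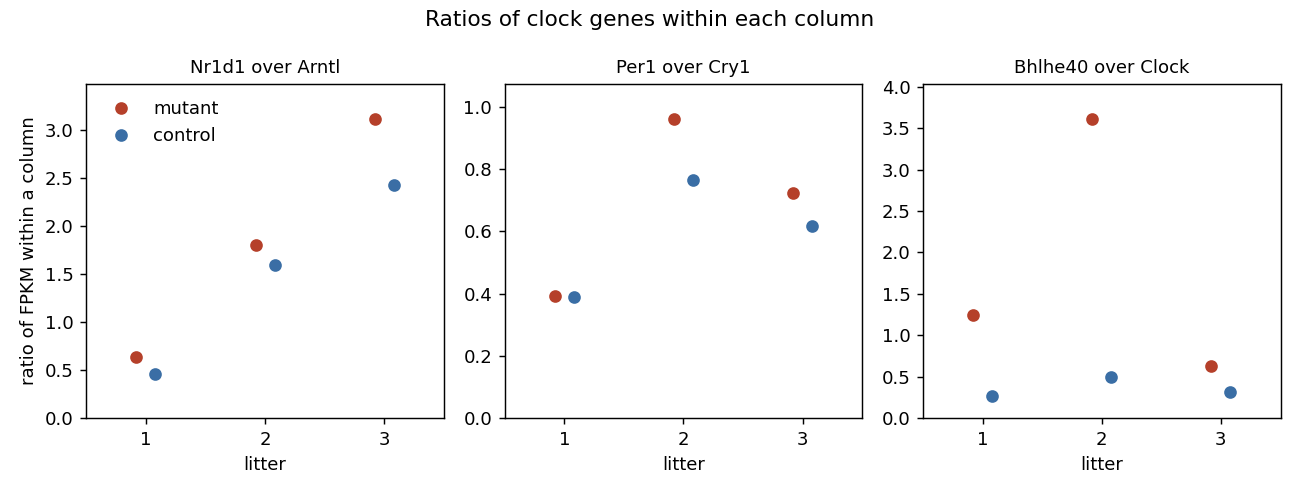
Ratio of FPKM values within each column, by litter, for Nr1d1 over Arntl, Per1 over Cry1 and Bhlhe40 over Clock, in mutants (red, left of each pair) and controls (blue). The first 2 ratios differ more between litters than between genotypes, and the third lies at 0.627 to 3.60 in mutants and 0.267 to 0.493 in controls.

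The wider clock was taken as a list of 31 other genes: further members of the loop, D-box factors, the kinases and ubiquitin enzymes that act on clock proteins, and common outputs. All 31 matched a row, Noct under its older symbol, and 27 were tested. In limma 0 of the 27 passed an adjusted p of 0.05, as did 0% of all rows, and the same was true with litter as a block, where again 0% of rows passed. At an unadjusted p under 0.05, 2 of the 27 were higher and 0 lower, or 2 higher and 1 lower with the block. Of all 12314 rows tested, 272 were higher and 167 lower at that p, or 658 and 775 with the block. Ciart, a repressor of Clock and Arntl also called Chrono, was at 5.86, 10.5 and 4.56 FPKM in the mutants and 2.26, 2.79 and 2.10 FPKM in the controls. The lowest mutant column, at 4.56 FPKM, was above the highest control column, and the mutants ranked as they did for Bhlhe40, with litter 2 highest and litter 3 lowest. Its log2 difference was 1.17 with a standard error of 0.28 (limma adjusted p = 0.816, or 0.0784 with the block). It passed the threshold in the blocked fit without the litter 2 pair (adjusted p = 1.85e-06), where 534 of all 12314 rows passed. It also passed without the litter 3 pair (0.0371), where 36 rows passed. It did not pass without the litter 1 pair (0.712), where 0 rows passed. These fits leave 1 residual degree of freedom per row. Over the alternatives the adjusted p ran from 1.85e-06 to 1.00.

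Nampt, the enzyme that sets the rate of NAD salvage and a clock output, was at 22.2, 22.5 and 16.8 FPKM in the mutants and 14.3, 11.0 and 12.8 FPKM in the controls, again without overlap. Its log2 difference was 0.65 with a standard error of 0.17 (limma adjusted p = 0.904, or 0.182 with the block). It passed in the blocked fit without the litter 2 pair (adjusted p = 0.0149), where 534 of all 12314 rows passed. Over all alternatives the adjusted p of Nampt ran from 0.0149 to 1.00. Klf10, a zinc-finger factor driven by the clock and by TGF-beta, was at 6.77, 5.19 and 3.86 FPKM in the mutants and 8.32, 10.8 and 4.55 FPKM in the controls, lower in each litter, with overlap (limma adjusted p = 1.00, or 0.390 with the block). Wee1, a cell cycle kinase with E-boxes, was at 18.5, 20.4 and 20.8 FPKM in the mutants and 21.9, 24.0 and 21.8 FPKM in the controls (adjusted p = 1.00, or 0.518 with the block). Without overlap, 3 of the 27 were higher, the third being the casein kinase gene Csnk1a1, and 2 were lower, namely Wee1 and the ubiquitin ligase gene Btrc, where 4.22% of all rows tested were higher and 5.03% lower without overlap. Paralogs of the 10 genes overlapped between the groups. Cry2 was at 6.33, 9.55 and 9.38 FPKM in the mutants and 7.13, 12.1 and 10.5 FPKM in the controls, lower in each litter like Cry1 but with overlap. Nr1d2 was at 2.43, 2.25 and 1.89 FPKM in the mutants and 2.48, 2.64 and 2.30 FPKM in the controls. The D-box factor Tef was at 14.8, 21.2 and 17.8 FPKM in mutants and 14.8, 16.1 and 16.3 FPKM in controls, and Nfil3, the repressor at D-boxes, at 9.50, 8.29 and 7.57 FPKM in mutants and 9.31, 8.67 and 6.17 FPKM in controls. The median log2 difference of the 27 was 0.02.

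The 5 rows whose log2 values were most like those of Bhlhe40 over the 6 columns were sought among 7157 rows with a mean of at least 2 FPKM and an SD of at least 0.2. They were Ero1l (Pearson r = 0.98), Tnfaip3 (0.98), Slc2a1 (0.97), Stxbp5 (0.97) and Ndrg1 (0.97), given as a description, since the columns share litters and genotypes. Slc2a1, the glucose transporter Glut1, was at 85.9, 173 and 62.7 FPKM in the mutants and 31.8, 42.4 and 31.3 FPKM in the controls. Ndrg1 was at 10.5, 29.9 and 6.35 FPKM in the mutants and 3.58, 4.67 and 4.48 FPKM in the controls. Tnfaip3, a ubiquitin-editing inhibitor of NF-kappaB, was at 3.67, 5.27 and 2.96 FPKM in the mutants and 2.44, 2.74 and 1.96 FPKM in the controls. Ero1l, Slc2a1 and Ndrg1, but not Tnfaip3 or Stxbp5, are in a list of 18 textbook targets of HIF. HIF is the oxygen-regulated factor that also acts on Bhlhe40. The ranking rests on the values of Bhlhe40 itself, and the list was chosen with earlier results of these data known. The part of HIF in these values was not tested. The rows most like Dbp were Gpx4 (r = 0.99), Neu1 (0.99), Hoxb2 (0.98), Acaa1a (0.98) and Bnip1 (0.98), and each was highest in litter 2 of both genotypes.

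**Figure D5:**
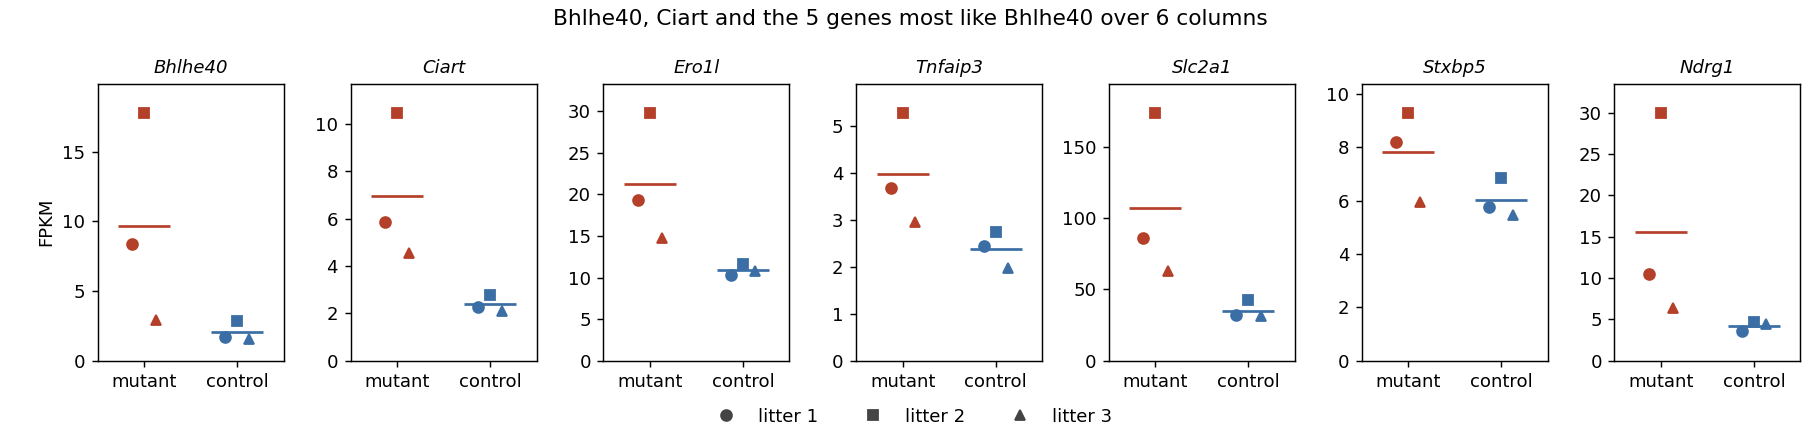
Level in FPKM of Bhlhe40, of Ciart and of the 5 genes most like Bhlhe40 over the 6 columns, in mutants (left, red) and controls (right, blue), with marker shape giving the litter and a line the mean of 3. In each panel the litter 2 mutant is highest and, among mutants, the litter 3 column is lowest.

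Other stimuli known to act on Bhlhe40 and Per1 were read from fixed lists, and their part in the values above was not tested. The 18 HIF targets were higher in the mutant in 3 of 3 litters for 18 genes and without overlap for 15, with a median log2 difference of 0.95. Over all rows tested, 15.7% were higher in 3 of 3 litters and 4.22% higher without overlap, with a median of -0.04. Their medians were 0.89, 1.42 and 0.72 in litters 1, 2 and 3, where Bhlhe40 had 1.79, 2.27 and 0.62, and their summed level was 842 to 1521 FPKM in mutants and 453 to 714 FPKM in controls. None of the 18 passed limma over all rows, with or without the block. At an unadjusted p under 0.05, 16 were higher, or 18 with the block. Of all 12314 rows tested, 272 were higher and 167 lower at that p, or 658 and 775 with the block. The list was chosen with earlier results of these data known, so these counts are a description. Pdk1, which limits pyruvate entry into mitochondria, was at 32.5, 35.9 and 37.9 FPKM in the mutants and 20.1, 17.5 and 21.3 FPKM in the controls (limma adjusted p = 0.525, or 0.0781 with the block). Of 17 tested immediate early genes, 1 was higher and 5 were lower in 3 of 3 litters, against 15.7% and 22.3% of all rows tested, with a median of -0.21. Their medians were -0.63, -0.20 and 0.07 in litters 1, 2 and 3, where Per1 had -0.29, -0.10 and -0.05. Junb was at 13.9, 18.2 and 17.2 FPKM in the mutants and 29.1, 29.3 and 17.8 FPKM in the controls (adjusted p = 1.00, or 0.350 with the block), and Ier3 at 4.30, 5.58 and 4.41 FPKM in the mutants and 2.51, 3.52 and 2.72 FPKM in the controls (adjusted p = 1.00, or 0.189). The 7 glucocorticoid targets, which share induction with Per1, had a median of -0.02.

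Markers of other cell types that a sorted limb sample could hold moved between columns as well. Summed over its list, endothelium was at 5.70 to 5.90 FPKM in mutants and 6.57 to 17.1 FPKM in controls, and surface ectoderm at 16.3 to 23.8 FPKM in mutants and 22.9 to 43.1 FPKM in controls. Muscle was at 50.3 to 54.0 FPKM in mutants and 29.4 to 81.3 FPKM in controls, and nerve and glia at 21.6 to 74.9 FPKM in mutants and 16.4 to 75.2 FPKM in controls. Leukocytes were at 10.8 to 44.3 FPKM in mutants and 12.1 to 15.4 FPKM in controls. The top of that mutant range rested on Lyz2, a lysozyme of myeloid cells, at 26.4 FPKM in the litter 2 mutant and under 1 FPKM in every other column. Without Lyz2 the sum was 10.1 to 17.9 FPKM in mutants and 11.9 to 15.3 FPKM in controls. Of 9 red cell genes 5 matched a row, at 229 to 712 FPKM in mutants and 327 to 591 FPKM in controls. The highest control sum was that of litter 2 for endothelium, surface ectoderm, muscle, nerve and glia, and red cells. The highest mutant sum of nerve and glia and of red cells was that of litter 1. No marker of these lists was at 0 in all columns. The part of these cells in the values of the 10 genes was not tested.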

How the data were processed

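RNA was sequenced from GFP-positive limb cells of E12.5 mouse embryos. The submitters' processing notes name TopHat, Cuffdiff and the build mm9, with no version, annotation or filter. Per the file headers, the authors scaled the deposited values by the geometric option of Cuffdiff. The deposited values are decimals from 0 and were read as FPKM, the unit of the output of Cuffdiff, which the authors ran per the file headers. The column sums of 347708 to 439109 FPKM are no measure of depth, which is unknown. The deposited gene list, which carries other data than values (symbols only), was used for membership. Columns were tied to samples by litter and genotype in the header, and no column of values was left out.

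For mutants against controls, limma 3.58.1 (R 4.3.3, moderated variances with a trend on mean level) was fitted to log2(FPKM + 1) over 12314 rows with 1 FPKM or more in at least 3 of 6 columns, with Benjamini-Hochberg adjustment over all rows and a threshold of 0.05. Fold changes on this scale understate those of low genes. The fit was run on simulated data with known differences, as a check on the size of its median estimates only. Litter numbers mark litters in the descriptions and so pair the columns. Deviations from group means correlated at 0.873, 0.568 and 0.770 within litters 1, 2 and 3, and at -0.710 to 0.167 between litters. Deviations from a mean of 3 sum to 0, which lowers the values between litters. The part of scaling by litter in these correlations was not tested. The fit without litter is given first and the blocked fit beside it. The columns come from 3 litters with an unstated number of embryos, and p-values measure only the spread between these columns. The 10 genes, the lists, the tests and the alternatives were chosen with earlier results of these data known. Genes named from a list were the up to 3 with the smallest unadjusted p and a mean of 2 FPKM or more, any gene of the core loop, D-box factor and kinase or ligase lists, and the 5 rows most like Bhlhe40 and most like Dbp. Xist, Eif2s3y and Lyz2 were named after their values were seen. Promoters are from RefSeq on GRCm38.p6, another build than that of the table.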

Additional observations from a re-analysis of the deposited data

How the results depend on the processing

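With 3 columns a group, unknown depth and litters that may be scaled separately, small differences cannot be resolved. Over 16 alternatives the 10 genes gave 155 values, 137 of them with the sign reported. Measured against each gene's own SD within groups, 1 value moved by that SD or more, namely Cry1 at -0.27 with a pseudocount of 5 FPKM. The SD of Cry1 was small. Genes with a larger SD, such as Per1, Nr1d1 and Dbp, changed sign in some alternatives without counting as moved. Bhlhe40 ran from 0.93 to 2.15, Cry1 from -0.37 to -0.27 and Arntl from -0.27 to -0.09. Bhlhe41 ran from 0.002, without the litter 2 mutant, to 0.34, where its standard error in the main fit was 0.24. Bhlhe40, Cry1, Arntl and Bhlhe41 kept their sign in all alternatives that gave a value. Per1 ran from -0.40 to 0.18 and Nr1d1 from -0.39 to 0.45, in fits that leave out the litter 1 column of 1 group. List medians kept their sign in 200 of 221 values. The count of rows called was 0 without and 0 with the replicate block, and 0 with each pseudocount, filter and quantile normalisation, but 15 with array weights. Leaving out 1 column or 1 litter pair gave 0 to 534 calls among 12314 rows. There were 534 in the blocked fit that drops litter 2 and 36 in the one that drops litter 3. For the 27 other clock genes the range was 0 to 2, with Ciart and Nampt called when litter 2 was dropped and Ciart when litter 3 was dropped. The cause was not tested. Fits without a litter pair leave 1 residual degree of freedom per row.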
